A study of Mus musculus with 24 samples.

Results

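The genes of the Fc gamma receptor system were followed in RNA from mouse choroid, the vascular layer behind the retina, taken from eyes of both wild type and Ceacam1-/- animals, laser-treated or not. The 6 genes were taken by symbol from a table of 56065 genes: the activating receptors Fcgr1, Fcgr3 and Fcgr4, the inhibitory receptor Fcgr2b, the shared signalling chain Fcer1g and the neonatal Fc receptor Fcgrt. All 6 passed the filter on low values, a mean of at least 10, and were above 0 in each of the 24 libraries. The labels gave 4 wild type and 4 Ceacam1-/- libraries without laser, and 9 wild type and 7 Ceacam1-/- libraries with laser. The laser groups had received 6 spots of 150 mW, 200 µm and 100 ms in each eye to induce choroidal neovascularization, an ingrowth of new vessels from the choroid. The labels do not give the time between laser and dissection, the sex or age of the animals, or whether animals were pooled, and the study's methods name young mice of both sexes as the default. The Ceacam1-/- mice carried a germline deletion of exons 1 and 2 of the gene for the adhesion molecule CEACAM1 and were compared with wild type littermates, all on the C57BL/6J background. Values were the normalized counts deposited for each library, which summed to between 23704346 and 35094410 per library.

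Fc gamma receptors bind the constant part of IgG and so let macrophages, microglia and other leukocytes take up and respond to antibody-coated material. Activating receptors carry no signalling motif of their own and pair with the Fcer1g chain, whose immunoreceptor tyrosine-based activation motif (ITAM) is phosphorylated by Src kinases and then recruits Syk. Fcgr2b instead holds an inhibitory motif (ITIM), which recruits phosphatases such as SHIP1 when it is brought together with an activating receptor. The neonatal receptor encoded by Fcgrt pairs with beta-2-microglobulin, is found in endothelium, epithelium and macrophages, and returns bound IgG to the cell surface instead of letting it be degraded. Laser injury of the choroid is known to bring macrophages to the burned site.

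Several libraries stood apart and bear on every result. The Ceacam1-/- laser libraries numbered 14, 15 and 18 had summed values of 7 photoreceptor marker genes of 903300, 513700 and 964900, against 5620 to 205100 in the 9 wild type laser libraries and 7148 to 135900 in the other 4 Ceacam1-/- laser libraries. Their summed macrophage markers were 33870, 29280 and 19770, against 61420 to 149000 in wild type laser libraries. These 3 libraries are also all the Ceacam1-/- laser libraries within the run of library numbers 11 to 19, which holds 6 wild type laser libraries as well. The other laser libraries, 3 wild type and 4 Ceacam1-/-, were numbered 1 to 7, and every library without laser was numbered 21 to 28. The labels do not say what such a run of numbers stands for, and laser cannot be told apart from the run 21 to 28. Among libraries without laser, wild type 21 and Ceacam1-/- 23 were high in photoreceptor markers, at 520800 and 564700. The tissue itself carried the markers of choroid with retinal pigment epithelium (RPE): summed endothelial markers lay between 10610 and 52110 and summed RPE markers between 39380 and 934500, and RNA of photoreceptors, muscle, lens and surface epithelium was present besides. Libraries 15, 19, 22, 27 and 28 stood apart in the summed values of 5 surface epithelium keratins, at 410600, 130200, 296300, 72790 and 420800, against 35.3 to 12650 in the other 19 libraries.

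Ceacam1 (ENSMUSG00000074272, GRCm39 chr7:25161128-25177257) gave only a weak check of the genotype labels, because its deposited value also counts the exons that were not deleted. The paper presents its own evidence of the deletion, from Ceacam1 mRNA of retina and choroid and from CEACAM1 staining of eyes. Without laser it was between 958 and 5027 in wild type (median 2919) and between 405 and 1171 in Ceacam1-/- libraries (median 506). With laser it was between 774 and 8367 in wild type (median 996) and between 67.8 and 905 in Ceacam1-/- libraries (median 335). The genotypes overlapped in both conditions: Ceacam1-/- library 28 lay above wild type library 21, and Ceacam1-/- library 15 above wild type library 13. Ceacam1 was also high in the libraries rich in epithelial keratins: library 28 at 1171 and 15 at 905 were the highest of their Ceacam1-/- groups, and library 22 at 5027, 27 at 4596 and 19 at 8367 the highest of their wild type groups. Among the other libraries the genotypes did not overlap, the lowest wild type values being 958 without and 774 with laser and the highest Ceacam1-/- values 508 and 438. By limma the difference was -1.95 on the log2 scale without laser (SE 0.60, adjusted p = 0.999) and -2.17 with laser (SE 0.52, adjusted p = 0.104). The latter passed with array weights (adjusted p = 0.0365), in libraries 11 to 19 (0.0272) and with the run of library numbers as a term (0.0233).

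Of the 6 genes, 4 lie together on chromosome 1 of GRCm39. These are Fcgr2b (ENSMUSG00000026656, chr1:170786186-170804177, minus strand), Fcgr4 (ENSMUSG00000059089, chr1:170846466-170857330, plus strand), Fcgr3 (ENSMUSG00000059498, chr1:170878738-170893549, minus strand) and Fcer1g (ENSMUSG00000058715, chr1:171057141-171062219, minus strand). Fcgr1 (ENSMUSG00000015947) lies at chr3:96190225-96201338 on the minus strand. Fcgrt (ENSMUSG00000003420) lies at chr7:44742412-44756819 on the minus strand, 19.6 Mb from Ceacam1 on the same chromosome. Fcgr2b and Fcgr3 are close copies in the part that binds IgG: of the 31-base words of the canonical transcripts, 15.5% of those of Fcgr3 also occurred in transcripts of Fcgr2b and 7.35% of those of Fcgr2b in transcripts of Fcgr3. The longest run that both canonical transcripts share is 129 bases of coding sequence, bases 402 to 530 of Fcgr2b and 505 to 633 of Fcgr3, shown here because reads inside it cannot be told apart by sequence:
shared by Fcgr2b and Fcgr3: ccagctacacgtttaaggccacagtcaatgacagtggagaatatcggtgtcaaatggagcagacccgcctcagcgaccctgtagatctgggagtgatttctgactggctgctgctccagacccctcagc
How the estimation divided such reads between the pair is uncertain, so their separate values carry that limit. Against all other genes together, Fcgr2b shared 16.3% of its words, Fcgr4 1.36% and Fcgrt 0.241%, and Fcgr1 and Fcer1g shared none.

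The receptors and their signalling chain were higher with laser in wild type choroid. As every library without laser is numbered 21 to 28, laser and number run cannot be told apart. In wild type mice 5 of the 6 genes rose, Fcgr1, Fcgr4, Fcer1g, Fcgr3 and Fcgr2b, where 4.23% of the 19950 genes tested were called higher and 1.05% lower. In Ceacam1-/- mice 3 of 6 rose, Fcgr4, Fcgr1 and Fcer1g, where 2.07% of all genes were called higher and 1.65% lower. The number of genes called higher depended on single libraries: in wild type 844 became 411 without library 21 and 510 without 27, and in Ceacam1-/- mice 413 became 1135 without 23, 214 without 24 and 133 without 25. The median log2 fold change over the 6 genes was 2.20 in wild type and 1.50 in Ceacam1-/- mice, against -0.10 and 0.02 over all genes tested. In wild type mice every laser library lay above every library without laser for all 6 genes, as for 4.5% of all genes. Among Ceacam1-/- libraries that held for Fcgr1 and Fcgr4, as for 1.17% of all genes. Both laser comparisons come from a fit of all 24 libraries, so 1 estimate of spread per gene served groups that differed in spread. The SD of Fcgrt with laser was 580 in wild type and 2795 in Ceacam1-/- libraries. In fits of 1 genotype alone all 6 genes were called in wild type, beside 8.13% of all genes called higher. None was called in Ceacam1-/- mice, beside 0.177%. The p-values measure the spread between libraries, whose origin from separate animals the labels do not state. Without the 5 libraries rich in epithelial keratins, a choice made after seeing the data, the same 5 genes were called higher in wild type, beside 2.41% of all genes, and the same 3 in Ceacam1-/- mice, beside 2.3%. In whole tissue, more cells that carry a receptor and more RNA per cell cannot be told apart.

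**Figure D1:**
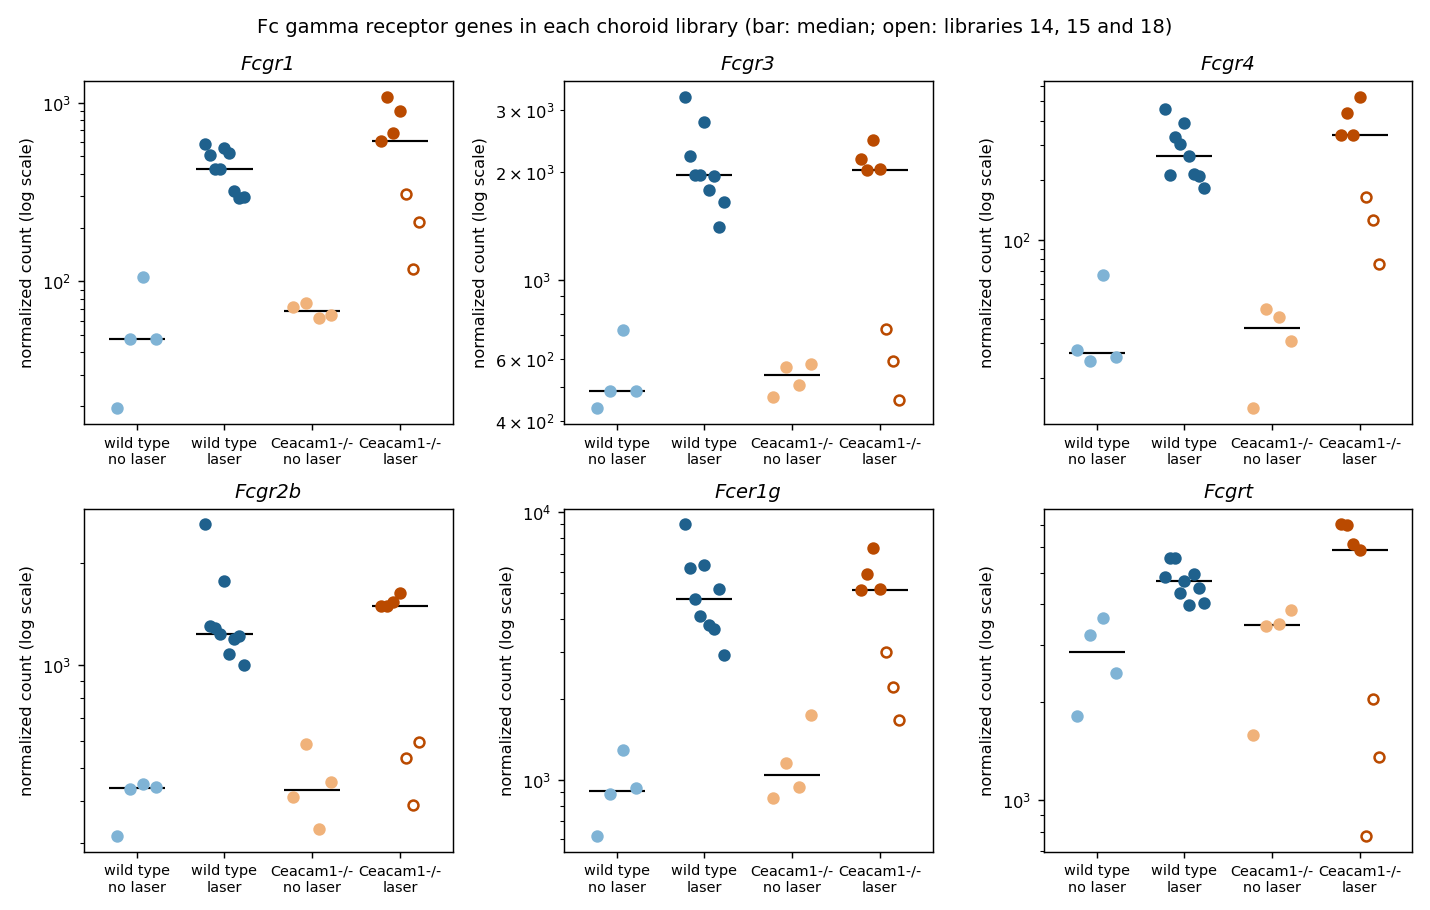
Normalized count (vertical log axes) of each gene in each of the 24 libraries by genotype and laser label; each point is a library, the bar is the group median, and open points are Ceacam1-/- laser libraries 14, 15 and 18. All wild type laser points lie above the wild type points without laser, while the 3 open points lie below the other 4 Ceacam1-/- laser points in every panel.

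Fcgr1 encodes the high-affinity receptor for IgG. Its normalized counts were 19.4, 47.7, 105.5 and 47.3 in the wild type libraries 21, 22, 26 and 27 without laser and rose to between 295 and 589 with laser (median 428). In the Ceacam1-/- groups they were 72.1, 75.7, 62.2 and 64.5 in libraries 23, 24, 25 and 28 without laser, and between 117 and 1081 with laser (median 614). Libraries 4 to 7 had the highest values of Fcgr1 in the series, 614 to 1081, and libraries 14, 15 and 18 had 310, 117 and 216, still above every Ceacam1-/- library without laser. The fold change was 8.94 in wild type (95% interval 4.67 to 17.1, adjusted p = 0.000121) and 6.35 in Ceacam1-/- mice (3.23 to 12.5, adjusted p = 0.00272), on the scale of log2(value + 1).

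Fcgr4 encodes a mouse receptor of intermediate affinity for IgG2a and IgG2b that is typical of monocytes, macrophages and neutrophils. It was 27.9, 24.3, 66.6 and 25.8 in wild type libraries 21, 22, 26 and 27 and between 182 and 455 with laser (median 264). In Ceacam1-/- libraries 23, 24, 25 and 28 it was 14.1, 44.7, 40.7 and 30.9, and with laser between 75.5 and 529 (median 337). The laser and no laser groups did not overlap in either genotype, although the lowest Ceacam1-/- laser library, 18, stood close to wild type library 26. The fold change was 8.07 in wild type (4.34 to 15, adjusted p = 0.000121) and 7.68 in Ceacam1-/- mice (4.02 to 14.7, adjusted p = 0.000689).

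Fcgr3 encodes the low-affinity activating receptor. In wild type libraries without laser it was 434, 486, 724 and 485, and with laser between 1409 and 3265 (median 1969). In Ceacam1-/- libraries it was 467, 569, 507 and 580 without laser, and between 459 and 2469 with laser (median 2025). Within the Ceacam1-/- laser group the values fell into separate ranges, 2025 to 2469 in libraries 4 to 7 and 727, 589 and 459 in libraries 14, 15 and 18, so that 6 of 7 lay above the highest library without laser. The fold change was 3.92 in wild type (2.34 to 6.56, adjusted p = 0.00157). In Ceacam1-/- mice it was 2.33 (1.36 to 3.99) and did not pass the threshold (adjusted p = 0.0673).

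The promoters of Fcgr1, Fcgr4 and Fcer1g, the 3 genes called higher with laser in both genotypes, are printed to show the letters around their starts. Each window runs from 250 bases before to 25 after the start of the canonical transcript in GRCm39, read on the gene's strand. Capitals mark the core GAGGAA of the myeloid factor PU.1, sought on both strands and here always as its complement TTCCTC, and the interferon gamma-activated site TTCNNNGAA, which reads alike on both strands.
Fcgr1, chr3:96201314-96201588, minus strand: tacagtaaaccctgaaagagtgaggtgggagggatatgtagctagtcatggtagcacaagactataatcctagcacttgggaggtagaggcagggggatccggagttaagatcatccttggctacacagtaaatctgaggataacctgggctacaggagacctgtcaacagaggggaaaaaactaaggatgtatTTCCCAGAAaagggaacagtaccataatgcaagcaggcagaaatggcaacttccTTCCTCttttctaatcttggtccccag
Fcgr4, chr1:170846216-170846490, plus strand: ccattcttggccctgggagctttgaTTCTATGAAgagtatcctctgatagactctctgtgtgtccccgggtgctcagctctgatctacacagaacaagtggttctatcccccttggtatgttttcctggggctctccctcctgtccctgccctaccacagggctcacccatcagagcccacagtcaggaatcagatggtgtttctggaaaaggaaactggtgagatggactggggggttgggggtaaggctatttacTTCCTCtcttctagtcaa
Fcer1g, chr1:171062195-171062469, minus strand: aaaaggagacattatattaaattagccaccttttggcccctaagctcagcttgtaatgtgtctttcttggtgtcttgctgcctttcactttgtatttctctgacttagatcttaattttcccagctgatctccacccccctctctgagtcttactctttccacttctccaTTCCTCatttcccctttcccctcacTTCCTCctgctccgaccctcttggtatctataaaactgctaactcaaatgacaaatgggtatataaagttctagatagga
GAGGAA began at -2 in Fcgr1, at 8 in Fcgr4 and at -80 and -55 in Fcer1g, counted from the start as 1. TTCNNNGAA began at -56 in Fcgr1 and at -225 in Fcgr4. Neither set of letters was present in the windows of Fcgr2b, Fcgr3 and Fcgrt, searched to 50 bases after the start. Over 21770 promoters of the same length, 27.5% held GAGGAA and 8.81% held TTCNNNGAA, so that these matches describe the windows and nothing more.

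Fcgr2b, the inhibitory receptor, was 315, 432, 449 and 440 in wild type libraries 21, 22, 26 and 27 and between 1000 and 2599 with laser (median 1233). In Ceacam1-/- libraries it was 410, 587, 330 and 453 without laser, and 1493 to 1638 in laser libraries 4 to 7 but 534, 389 and 596 in libraries 14, 15 and 18. Libraries 14 and 15 lay within the range of the libraries without laser. The fold change was 3.33 in wild type (2.07 to 5.36, adjusted p = 0.00244) and 2.18 in Ceacam1-/- mice (1.33 to 3.58), where it did not pass (adjusted p = 0.0689). Its ITIM is encoded by codons 270 to 275 of 293 of the canonical transcript, with capitals at the codons that define the motif. The same loose pattern of codons, outside the part known to act as an ITIM, also occurs in Fcgr1, Fcgr4, Fcer1g and Fcgrt:
Fcgr2b ITIM: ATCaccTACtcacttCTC
Because reads of Fcgr2b and Fcgr3 can be exchanged, the pair was also summed, a choice made after seeing the data. The sum was 3.66-fold higher with laser in wild type (adjusted p = 0.00135), and its 2.27-fold change in Ceacam1-/- mice did not pass (adjusted p = 0.0591). With Fcgr4 added the sum passed in both genotypes, at 3.81-fold (adjusted p = 0.00102) and 2.45-fold (adjusted p = 0.0415).

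Fcer1g encodes the chain that the activating receptors need for surface expression and signalling. Its ITAM is encoded by codons 65 to 79 of 86, and capitals mark the tyrosine and leucine codons that define it:
Fcer1g ITAM: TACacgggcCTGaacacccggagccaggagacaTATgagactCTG
Fcer1g was 615, 887, 1293 and 929 in wild type libraries without laser and between 2921 and 9008 with laser (median 4726). In Ceacam1-/- libraries it was 855, 1150, 940 and 1740 without laser, 5098 to 7321 in laser libraries 4 to 7, and 3004, 2228 and 1667 in libraries 14, 15 and 18. Only library 18 of the laser libraries lay below a Ceacam1-/- library without laser, library 28. The fold change was 5.36 in wild type (3.31 to 8.69, adjusted p = 9.07e-05) and 3.42 in Ceacam1-/- mice (2.07 to 5.66, adjusted p = 0.00708).

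Fcgrt differed from the other 5 in how little it moved. In wild type it was 1818, 3228, 3629 and 2470 without laser and between 3986 and 5572 with laser (median 4713), so the groups did not overlap. In Ceacam1-/- libraries it was 1589, 3428, 3482 and 3844 without laser, 5884 to 7049 in laser libraries 4 to 7, and 776, 2046 and 1361 in libraries 14, 15 and 18, of which 14 and 18 lay below every library without laser. The fold change was 1.74 in wild type (0.925 to 3.28, adjusted p = 0.315) and 1.11 in Ceacam1-/- mice (0.575 to 2.16, adjusted p = 0.878). In a fit of the wild type libraries alone the same difference passed (adjusted p = 0.00635), so that all 6 genes were called, beside 8.13% of all genes called higher. With array weights all 6 were called as well, beside 16.2%.

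The Ceacam1-/- laser result depended on libraries 14, 15 and 18, a choice made after seeing the values. Without them all 6 genes rose in Ceacam1-/- mice, Fcgrt included at 2.22-fold (adjusted p = 0.00258), beside 7.6% of all genes called higher. Fcgr2b was then 3.53-fold and Fcgr3 4.11-fold higher, with adjusted p of 3.35e-05 and 3.21e-06. When the laser libraries were instead limited to numbers 11 to 19, Fcgr1, Fcgr4 and Fcer1g rose in Ceacam1-/- mice at 2.87-, 3.78- and 1.99-fold, beside 5.88% of all genes, and Fcgrt fell by 1.18 on the log2 scale (adjusted p = 0.0311), beside 8.6% of all genes called lower. In wild type mice the same 5 genes were called higher with laser libraries 1 to 7 (4.99% of all genes) and with laser libraries 11 to 19 (3.23%). In a fit of the 11 Ceacam1-/- libraries alone none of the 6 passed, the lowest adjusted p being 0.071 for Fcgr4, and 0.177% of all genes were called higher. The count of 3 rose to 6 with laser libraries 1 to 7, beside 5.72% of all genes, to 5 with array weights, beside 9.5%, and to 5 without library 14, beside 2.28%.

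**Figure D2:**
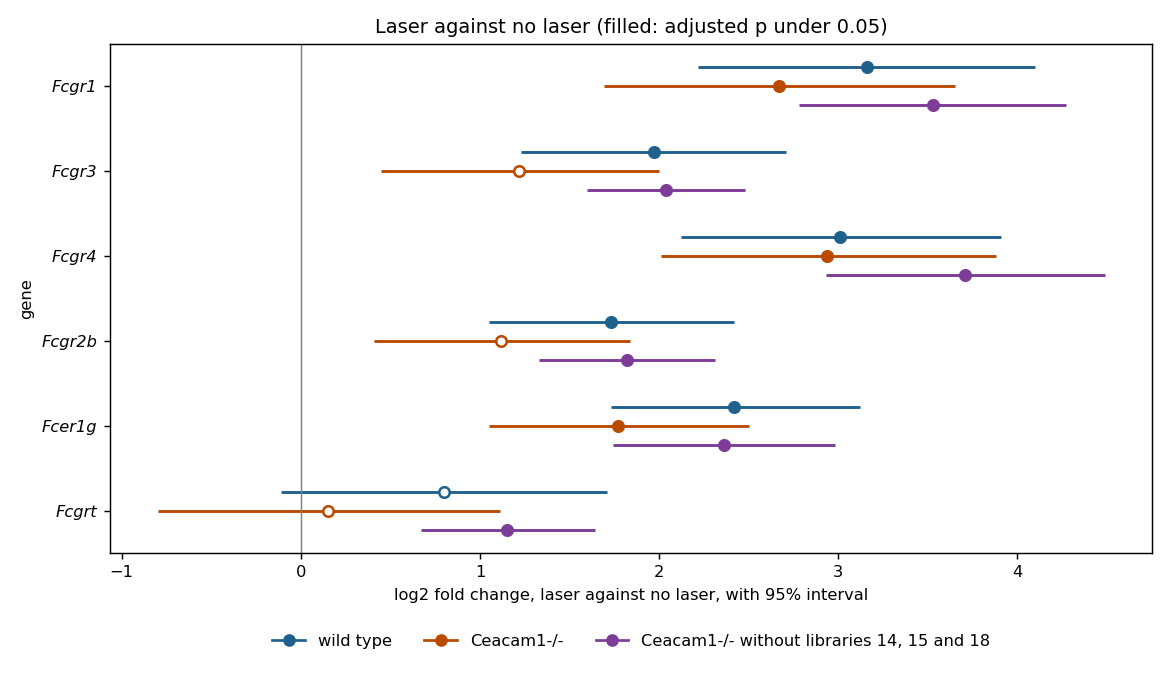
Log2 fold change of laser against no laser (horizontal axis) with its 95% interval for each gene; blue is wild type, orange is Ceacam1-/- and purple is Ceacam1-/- without libraries 14, 15 and 18, and filled points have an adjusted p under 0.05. In wild type 5 of 6 points are filled, in Ceacam1-/- 3 of 6, and without the 3 libraries all 6.

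Whether the receptors respond differently in the absence of CEACAM1 was asked by the interaction of laser and genotype, and none of the 6 genes passed, as 0% of all genes did. The interaction was between -0.75 for Fcgr3 (SE 0.52, adjusted p = 0.641) and -0.07 for Fcgr4 (SE 0.63, adjusted p = 0.967) on the log2 scale. With laser libraries 11 to 19 alone Fcgr2b (-1.40, adjusted p = 0.0204), Fcgr3 (-1.71, adjusted p = 0.0134) and Fcgrt (-1.89, adjusted p = 0.0229) passed, beside 9.4% of all genes. Without libraries 14, 15 and 18 none passed, beside 0% of all genes, and 5 of 6 values were above 0. The 95% intervals over all libraries were wide: for Fcgr1 from -1.85 to 0.86 and for Fcer1g from -1.66 to 0.36. Without laser the genotypes differed by between -0.13 for Fcgr4 and 0.54 for Fcgr1, none of the 6 passed, and 0% of 20057 genes did. For Fcgr3, whose SE of 0.22 was the smallest of the 6, the interval of that difference ran from -0.47 to 0.51. For Fcgr1 it ran from -0.59 to 1.68 and for Fcgr4 from -1.35 to 1.08. In data simulated for this comparison, the spread of each gene was pooled over all 24 libraries, laser libraries included. There 0 of 200 genes given a log2 change of 1 were recovered. With a change of 2, 125 of 200 were. As the spread was not that of the libraries without laser, these counts do not give the power of the comparison. With limma and no adjustment, 307 genes had a p under 0.05 in the genotype comparison without laser and 1241 in the interaction. None of the 6 was among these genes. The paper's DESeq2 test of genotype in healthy choroid, with sex as a covariate, did call some genes at an adjusted p under 0.05.

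With laser, 0 of 6 genes differed between Ceacam1-/- and wild type over all 16 libraries, where 0.0202% of 19757 genes passed. With the number run as a term, a choice made after seeing the data, Fcgr2b was lower in Ceacam1-/- mice at 0.599-fold (adjusted p = 0.0347) and Fcgr3 at 0.507-fold (adjusted p = 0.0226), beside 19.6% of all genes. Without that term Fcgr3 came nearest, at 0.603-fold (95% interval 0.367 to 0.992, adjusted p = 0.216), and only libraries 14, 15 and 18 lay below the wild type range, which began at 1409. Within the run of numbers 1 to 7 none passed and 0% of all genes did, with differences from -0.16 for Fcgr3 to 0.66 for Fcgr1. Within the run 11 to 19 all 6 were lower in Ceacam1-/- mice, beside 37.9% of all genes called in either direction: Fcgrt was 0.293-fold (adjusted p = 0.00132), Fcgr3 0.31-fold (adjusted p = 0.000986) and Fcgr2b 0.406-fold (adjusted p = 0.00209). Fcgr4, Fcgr1 and Fcer1g were 0.46-, 0.511- and 0.532-fold, with adjusted p of 0.0214, 0.0454 and 0.022. The genotype difference itself differed between the runs for 5 of 6 genes, as for 17.4% of all genes, and for Fcer1g the difference of -0.76 did not pass (adjusted p = 0.166). Among the cell type markers tested in the same comparison of runs, 11 of 16 of macrophages, 6 of 9 of endothelium, 6 of 7 of RPE, 6 of 6 of melanocytes, 4 of 6 of mast cells, 3 of 5 of T cells, 2 of 6 of dendritic cells, 1 of 4 of B cells, 1 of 3 of NK cells and 1 of 5 of erythroid cells were lower. Another mast cell marker was higher, and no neutrophil, lens, muscle, surface epithelium or photoreceptor marker passed, the median of the 7 photoreceptor markers being 3.99 on the log2 scale. With photoreceptor markers as a covariate Fcgr3 (-1.40, adjusted p = 0.0366) and Fcgrt (-1.86, adjusted p = 0.00878) passed, beside 5.46% of all genes. Fcgr1 at -1.78 (SE 0.53), Fcgr4 at -1.28 (SE 0.53) and Fcgr2b at -0.95 (SE 0.38) did not pass, against -1.63 (SE 0.44), -1.46 (SE 0.45) and -1.21 without the covariate. With macrophage markers as a covariate none of the 6 passed, beside 0% of all genes, and the SE were larger: Fcgrt was at -2.42 (SE 0.62), against -2.06 (SE 0.31) without it, and Fcgr1 at -0.76 (SE 0.85). Fcgr2b and Fcgr3 were then at -0.09 (SE 0.57) and 0.13 (SE 0.36), and Fcgr4 and Fcer1g at 0.41 (SE 0.71) and 1.17 (SE 0.48). Beside a background of this size nothing particular to the receptors can be read from their count.

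**Figure D3:**
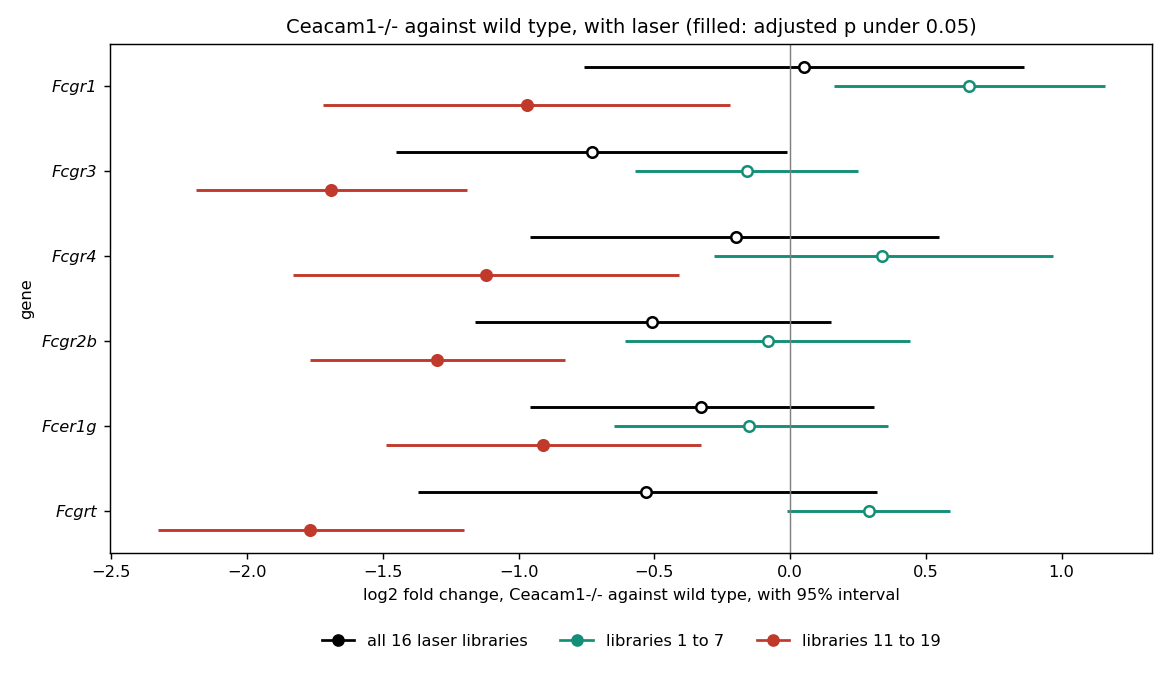
Log2 fold change of Ceacam1-/- against wild type among laser libraries (horizontal axis) with its 95% interval; black is all 16 libraries, green is libraries 1 to 7 and red is libraries 11 to 19, and filled points have an adjusted p under 0.05. Only the red points are filled, all 6 of them below 0.

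Levels of different genes were compared per kilobase of the canonical transcript. Without laser in wild type the order was Fcer1g at 971 ± 291 per kb (SD, n = 4), Fcgrt at 950 ± 274, Fcgr3 at 345 ± 84.1, Fcgr2b at 120 ± 18.6, Fcgr4 at 28.3 ± 15.9 and Fcgr1 at 20.8 ± 13.7. The first pair and the last pair differed by less than their spread. With the median length of coding transcripts in place of the canonical one the first pair changed places, Fcgrt at 1497 and Fcer1g at 1035. With laser in wild type Fcer1g stood alone at 5320 ± 1943 (n = 9). Fcgrt at 1611 ± 198 and Fcgr3 at 1366 ± 373 followed and differed by less than their spread. With the median coding length they were at 2538 ± 312 and 1368 ± 374 and lay apart by more than their SDs together. Fcgr2b was at 414 ± 146, above Fcgr4 at 223 ± 72.6 and Fcgr1 at 166 ± 43.4, which again differed by less than their spread. In Ceacam1-/- laser libraries the canonical order was the same, from Fcer1g at 4521 ± 2166 (n = 7) to Fcgr1 at 212 ± 137. With the median coding length Fcgr1 at 309 ± 199 and Fcgr4 at 249 ± 147 changed places there, within their spread.

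The balance of activating to inhibitory receptor RNA was described by the summed level per kb of Fcgr1, Fcgr3 and Fcgr4 over that of Fcgr2b. The ratio was 3.27 ± 0.712 in wild type without laser (n = 4) and 4.33 ± 0.542 with laser (n = 9). In Ceacam1-/- mice it was 3.12 ± 0.625 without laser (n = 4) and 4.24 ± 0.784 with laser (n = 7). The ranges overlapped in both genotypes, and the lowest laser value, 2.5, was that of library 18. Fcer1g RNA exceeded the summed receptor RNA in each library, by a mean ratio between 2.46 and 3.53 over the 4 groups.

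The tested genes listed as partners of Fcer1g, besides the Fc gamma receptors, rose in wild type. The list, chosen like all lists here with earlier results known, held 14 genes, of which 11 were found by symbol, 3 (Pira6, Pira11 and Clec6a) were not, and 7 could be tested. All 7 rose with laser in wild type and 4 in Ceacam1-/- mice, against the shares of all genes given above. One of them, Clec4a2, encodes a C-type lectin with an ITIM of its own and so is not a receptor that signals through Fcer1g, and without it 6 of 6 rose in wild type and 3 of 6 in Ceacam1-/- mice. Clec4e, the Mincle receptor for mycobacterial lipid and dead cells, went from 3.43 ± 4.11 to 161 ± 72.3 in wild type, a log2 fold change of 5.59 (SE 0.68, adjusted p = 2.04e-05), and rose by 5.68 in Ceacam1-/- mice. Values of Clec4e without laser lay near 0, so the size of these changes is uncertain. Over the alternatives they ran from 3.59 to 6.62 in wild type and from 3.13 to 6.52 in Ceacam1-/- mice. Csf2rb, the common beta chain of cytokine receptors, and Clec4a2 rose by 2.37 and 2.46 in wild type and by 1.42 and 1.97 in Ceacam1-/- mice. Clec4n, which encodes Dectin-2, was the most abundant and rose by 1.69 in wild type (adjusted p = 0.0401); in Ceacam1-/- mice its change of 1.66 did not pass (adjusted p = 0.0626), but did with array weights (0.000179) or without libraries 14, 15 and 18 (2.86e-05). Clec4n lost its call in wild type without library 21, 22 or 27, with no filter on low values (adjusted p = 0.0656), with Y-linked genes as a covariate (0.0646) and without the libraries rich in epithelial keratins (0.298), and Csf2rb lost its call in Ceacam1-/- mice without library 25. With laser libraries 11 to 19 neither Csf2rb (0.76, adjusted p = 0.122) nor Clec4a2 (0.97, adjusted p = 0.13) passed in Ceacam1-/- mice.

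Of 21 genes of ITAM signalling, 12 rose in wild type and 8 in Ceacam1-/- mice, beside 4.23% and 2.07% of all genes called higher. The Src-family kinase Fgr went from 10.2 ± 7.73 to 197 ± 59.1 in wild type, a log2 fold change of 4.40 (SE 0.43, adjusted p = 1.05e-06), and rose by 3.21 in Ceacam1-/- mice (adjusted p = 0.000273). The adaptor Lat2 rose by 2.65 and 1.73, the exchange factor Vav1 by 2.47 and 1.63, and Tyrobp, the DAP12 chain that carries an ITAM like that of Fcer1g, by 2.39 and 1.56. In Ceacam1-/- mice Lat2, Vav1 and Tyrobp lost their calls without library 25, and Vav1 and Tyrobp also without library 24, and with laser libraries 11 to 19 none of the 3 passed (adjusted p = 0.157 for Lat2, 0.109 for Vav1 and 0.214 for Tyrobp). Syk, the kinase that binds phosphorylated ITAMs, is added here for its role and not by the rule for named genes. It was 193 ± 89.7 without and 440 ± 108 with laser in wild type, and did not pass (log2 fold change 1.25, adjusted p = 0.135). The same change of Syk passed with array weights (adjusted p = 0.000528) and in a fit of the wild type libraries alone (adjusted p = 0.00923). With laser in Ceacam1-/- mice Syk passed with array weights (0.96, adjusted p = 0.0388) and without libraries 14, 15 and 18 (1.31, adjusted p = 0.0335).

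The inhibitory side held 15 genes, of which 9 rose in wild type and 4 in Ceacam1-/- mice, beside 4.23% and 2.07% of all genes. Sirpa, the inhibitory receptor for CD47, was the most abundant and rose by 0.92 in wild type (SE 0.20, adjusted p = 0.00649) and by 0.76 in Ceacam1-/- mice. The latter call was lost in 13 of 24 alternatives: without library 14, 24, 25 or 28, with no filter (adjusted p = 0.0751), quantile normalization (0.051), no variance trend (0.0544), or Y-linked (0.0505), macrophage (0.108) or photoreceptor genes (0.073) as a covariate, in the Ceacam1-/- libraries alone (0.217), with laser libraries 11 to 19 (0.197) and without the libraries rich in epithelial keratins (0.08). In wild type Sirpa did not pass without the latter libraries (0.70, adjusted p = 0.224) or with macrophage markers as a covariate (0.64, adjusted p = 0.202). Inpp5d, which encodes SHIP1 and was added for its role after its values were seen, went from 265 ± 96.2 to 597 ± 124 in wild type, a rise of 1.21 (adjusted p = 0.0307) that did not pass without library 21, 22 or 27, with no filter (adjusted p = 0.053), with Y-linked genes as a covariate (0.0648) or without the libraries rich in epithelial keratins (0.207). In Ceacam1-/- libraries it was 637 ± 213 without and 396 ± 191 with laser (log2 fold change -0.80, adjusted p = 0.188), and it was lower with laser with macrophage markers as a covariate (-2.02, adjusted p = 0.000124) and with laser libraries 11 to 19 (-1.65, adjusted p = 0.00674). Its interaction of -2.01 (adjusted p = 0.64) and its genotype difference of 1.27 without laser (adjusted p = 0.999) did not pass. Pirb, an ITIM receptor for MHC class I, rose by 2.08 and 1.96, the latter not passing with laser libraries 11 to 19 (1.09, adjusted p = 0.0641) or in the Ceacam1-/- libraries alone (0.14). Lilrb4a and Cd300a, also ITIM receptors, rose by 2.37 and 2.27 in wild type, and neither passed in Ceacam1-/- mice (adjusted p = 0.0717 and 0.0836). Both passed there with array weights (adjusted p = 0.000371 and 0.000541) and without libraries 14, 15 and 18 (adjusted p = 0.000306 and 0.000168). All 6 genes of the phagocyte oxidase, which makes superoxide after Fc receptor engagement, rose in wild type and 3 of 6 in Ceacam1-/- mice. Of all genes 4.23% and 2.07% were called higher in these comparisons. The p47phox subunit Ncf1 of the oxidase rose by 2.67 and 1.78, the membrane subunit Cybb by 2.38 and 1.71 and the GTPase Rac2 by 2.52 and 2.02. Cyba, the most abundant, rose by 1.78 in wild type and changed by 1.01 in Ceacam1-/- mice (adjusted p = 0.148). There Cyba passed with array weights (adjusted p = 0.000766) and without libraries 14, 15 and 18 (adjusted p = 0.000536). Without library 25 none of Ncf1, Cybb and Rac2 passed in Ceacam1-/- mice, and without library 24 Cybb and Rac2 did not. With laser libraries 11 to 19 these 3 did not pass there either (adjusted p = 0.0864, 0.288 and 0.256). Rac2 also stands in the ITAM list, and Tyrobp also among the macrophage markers. Fcer1a, which could not be tested, stands both in the Fcer1g partner list and among the other Fc receptors.

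Ligands and other Fc receptors were examined next, beside 4.23% of all genes called higher in wild type and 2.07% in Ceacam1-/- mice. RNA of the IgG heavy chains Ighg1, Ighg2b, Ighg2c and Ighg3 stayed under the filter on low values, with group means between 0 and 9.9, and Ighe was at 0 in every library. Of 5 immunoglobulin genes that could be tested, Ighm alone rose, in wild type, from 231 ± 131 to 593 ± 112 (log2 fold change 1.63, adjusted p = 0.0237), and none passed in Ceacam1-/- mice. Ighm did not pass in wild type without library 21 or 22, with laser libraries 1 to 7 (1.58, adjusted p = 0.0596) or without the libraries rich in epithelial keratins (2.12, adjusted p = 0.0674), and did in Ceacam1-/- mice with array weights (1.27, adjusted p = 0.015) and without libraries 14, 15 and 18 (1.59, adjusted p = 0.00938). Such RNA reports cells that make antibody and says nothing of IgG protein from the blood. Of 13 genes of other Fc receptors and their partners 5 could be tested and none passed in either genotype. Among them B2m, the partner of the neonatal receptor, changed by 0.75 in wild type (adjusted p = 0.22) and 0.18 in Ceacam1-/- mice. In wild type B2m passed with array weights (0.59, adjusted p = 0.0207) and in a fit of the wild type libraries alone (adjusted p = 0.0296). Of 3 pentraxins, which also bind Fc gamma receptors, only Ptx3 could be tested, and it changed by -0.02 and -0.68 without passing.

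**Figure D4:**
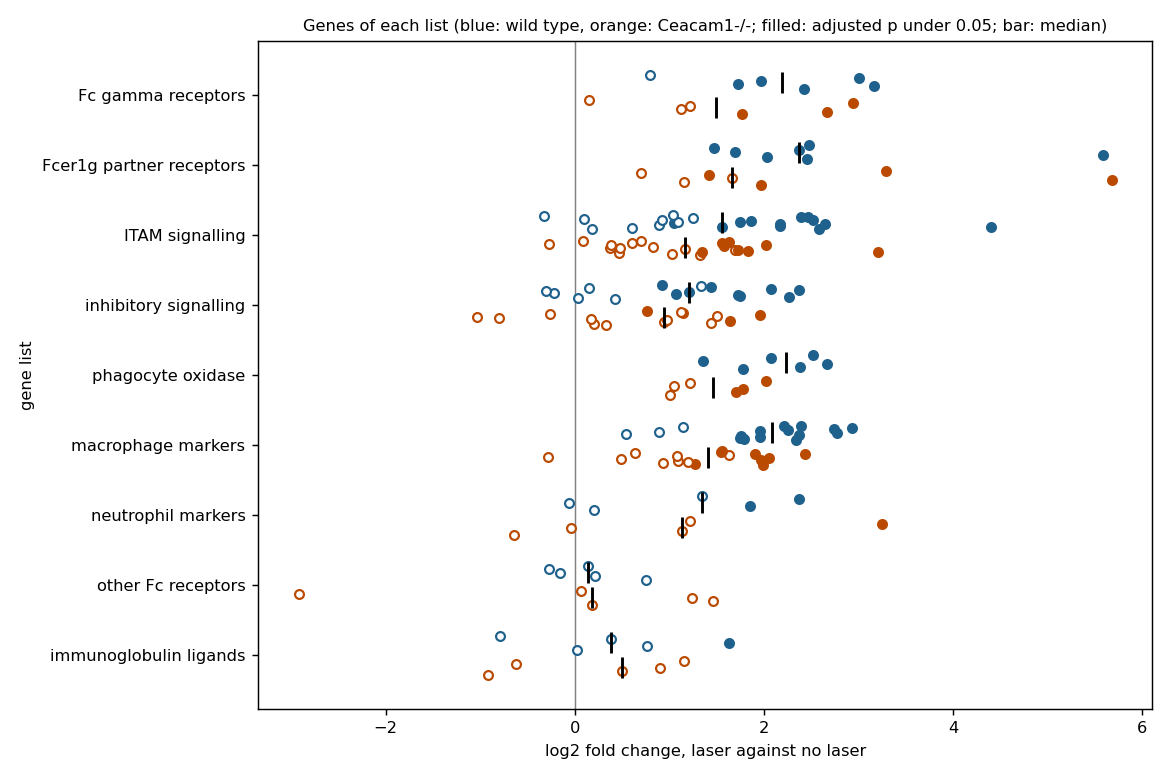
Log2 fold change of laser against no laser (horizontal axis) for each tested gene of the lists; blue is wild type, orange is Ceacam1-/-, filled points have an adjusted p under 0.05 and the bar is the median of the list. Genes of the Fcer1g partner list, Clec4a2 included, and phagocyte oxidase genes are all filled in wild type, while the other Fc receptors have no filled point in either genotype.

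Markers of macrophages moved with the receptors. Of 16 macrophage markers 13 rose in wild type after laser, as did 8 in Ceacam1-/- mice, beside 4.23% and 2.07% of all genes. The median log2 fold changes of the list were 2.09 and 1.41, against -0.10 and 0.02 over all genes tested. The summed values of the markers were 13120 to 26890 without and 61420 to 149000 with laser in wild type. In Ceacam1-/- mice they were 14610 to 20480 without and 19770 to 109000 with laser. Lyz2, the most abundant, rose by 2.74 and 2.44, Mpeg1 by 2.93 and 1.91, and Ptprc, the common leukocyte antigen, by 2.21 and 1.55, the last not passing without library 25, with laser libraries 11 to 19 (0.79, adjusted p = 0.0801) or in the Ceacam1-/- libraries alone (0.163). In that fit neither Lyz2 (adjusted p = 0.0904) nor Mpeg1 (0.122) passed. When the mean log2 value of the 16 markers entered the wild type comparison as a covariate, none of the 6 genes was called higher, beside 4.48% of all genes. Fcgr1 and Fcgr4 then differed by 0.71 and 0.77 (adjusted p = 0.294 and 0.267), Fcer1g by 0.45, Fcgr2b by -0.16 and Fcgr3 by -0.25, and Fcgrt was lower, at -1.62 (adjusted p = 0.0204), as 6.11% of all genes were. The covariate took Fcgr1 in Ceacam1-/- mice from 2.67 to 1.01 (adjusted p = 0.0355) and Fcgr4 from 2.94 to 1.42 (adjusted p = 0.00612), both still called higher, as 18.1% of all genes were. Fcer1g at 0.44 (adjusted p = 0.118), Fcgr2b at -0.16 and Fcgr3 at -0.28 did not pass there, and Fcgrt was called lower, at -1.49 (adjusted p = 0.00282), as 15.9% of all genes were. The markers are themselves higher with laser, so the covariate takes up part of the laser difference by construction.

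Markers of other leukocytes were examined in the same way, beside 4.23% of all genes called higher in wild type and 2.07% in Ceacam1-/- mice. Of 9 neutrophil markers 5 could be tested, and Csf3r and S100a8 rose in wild type, by 1.85 and 2.37, and S100a8 in Ceacam1-/- mice by 3.25. In wild type Csf3r did not pass without library 22, nor S100a8 without library 21 or 27 or with laser libraries 11 to 19 (2.14, adjusted p = 0.0686), and neither passed without the libraries rich in epithelial keratins (adjusted p = 0.211 and 0.129). In Ceacam1-/- mice Csf3r passed with array weights (1.88, adjusted p = 0.0012), without library 23 and without libraries 14, 15 and 18 (1.67, adjusted p = 0.0268), and S100a8 did not in the Ceacam1-/- libraries alone (adjusted p = 0.0834). The neutrophil-defining Ly6g was above 0 in 2 libraries and Mpo in 5, with group means of at most 0.75. Camp and Cxcr2 of the same list were above 0 in all 24 libraries and did not pass in either genotype. Group means were between 89.8 and 118 for Camp and between 39.6 and 63.1 for Cxcr2. These 4 genes are outside the rule for named genes. Markers of mast cells, B cells, NK cells and T cells gave no called gene in either genotype, and of 6 dendritic cell markers 2 rose in wild type and none in Ceacam1-/- mice. Nor did any endothelial, RPE, melanocyte, photoreceptor, lens, muscle, surface epithelium or erythroid marker pass in either laser comparison. With photoreceptor markers as a covariate, a choice made after seeing the data, 5 of 6 genes were called higher with laser in Ceacam1-/- mice, beside 3.49% of all genes, Fcgr2b at 2.69-fold (adjusted p = 0.00846) and Fcgr3 at 3.01-fold (adjusted p = 0.00421).

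Calls of the named genes of these lists depended on the setting. Many were named for their low p with laser in wild type, so counts of their calls do not compare the genotypes. Of 16 such genes called in Ceacam1-/- mice, Clec4e and Fgr passed in a fit of the Ceacam1-/- libraries alone. The other 14 did not (adjusted p from 0.0834 to 0.228). With laser libraries 11 to 19 Clec4e, Fgr, Lyz2, Mpeg1 and S100a8 passed and 11 did not (adjusted p from 0.0641 to 0.288), and without library 25 there were 9 losses. With no filter on low values 4 were lost, Tyrobp, Sirpa, Cybb and Rac2 (adjusted p from 0.0516 to 0.0751). Of 23 called in wild type, 8 were lost without the libraries rich in epithelial keratins, among them Cd300a and Cyba (adjusted p from 0.0674 to 0.298). With macrophage markers as a covariate 17 of 19 genes outside that marker list lost their calls in wild type and 9 of 12 in Ceacam1-/- mice, while Clec4e and Fgr passed in both.

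**Figure D5:**
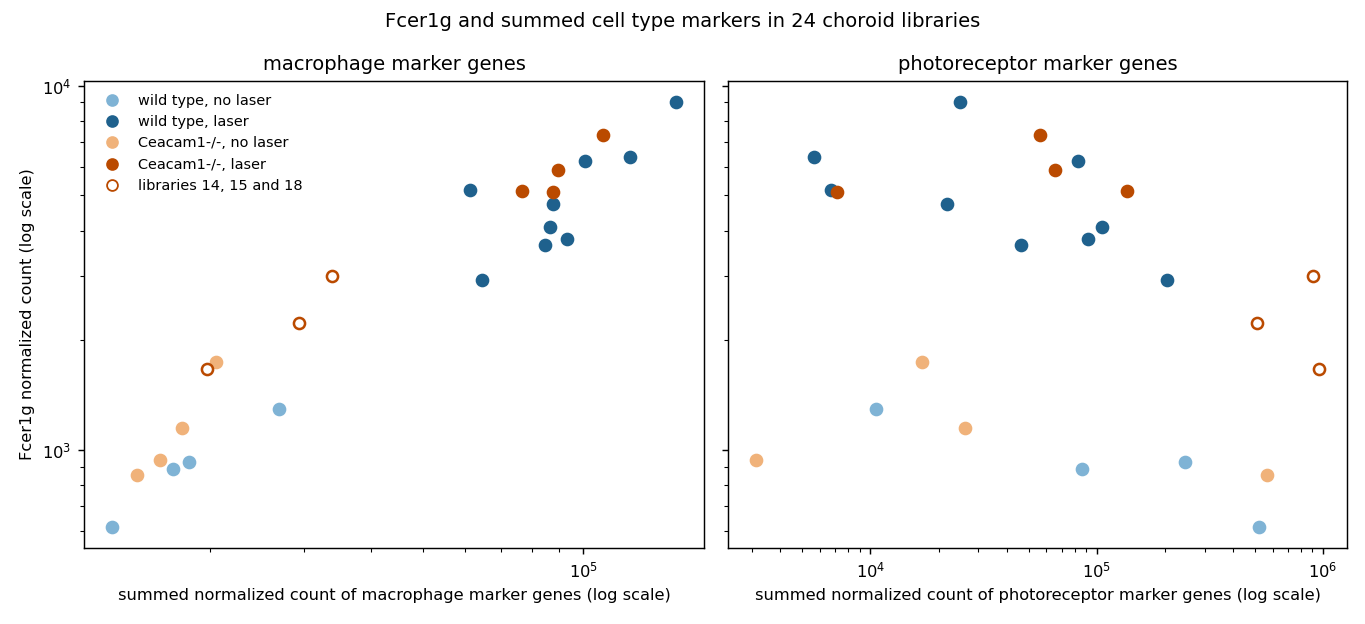
Normalized count of Fcer1g (vertical log axis) against the summed normalized counts of macrophage markers (left) and photoreceptor markers (right, both log axes) in 24 libraries; open points are libraries 14, 15 and 18. Fcer1g runs with the macrophage sum over all libraries, and the 3 open points lie at 513700 to 964900 on the photoreceptor axis.

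Across the 24 libraries, after removing each group's mean, the 6 genes moved together, with Pearson's r between 0.670 for Fcgr1 with Fcgrt and 0.901 for Fcgr2b with Fcgr3. These coefficients share library composition and rest in part on 3 libraries: without 14, 15 and 18 they lay between 0.284 and 0.771 over 21 libraries. The coding genes most like Fcgr3 were Lyz2 (r = 0.970), C1qa (r = 0.965) and C1qb (r = 0.965), all expressed by macrophages. Fcer1g was most like Ifi30, a lysosomal thiol reductase, Cd52 and C1qc, with r of 0.965, 0.961 and 0.954. Fcgr2b was most like Igf1, Maged2 and C1qa (0.925, 0.924 and 0.915), and Fcgr1 like the chemokine Ccl12, Fcrl2 and Laptm5 (0.907, 0.887 and 0.871). Fcgr4 was most like Slamf7, Cd300ld and Calr (0.935, 0.910 and 0.896). Fcgrt was most like Gypc, Ltbr and Ppic (0.970, 0.970 and 0.968). All these neighbours were picked for the highest r among the coding genes tested. Without libraries 14, 15 and 18 their r lay between 0.718 for Laptm5 with Fcgr1 and 0.937 for Cd52 with Fcer1g.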

How the data were processed

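Choroidal RNA of 24 libraries was sequenced by the authors as SMART-Seq libraries, and per the labels reads were checked with FastQC 0.11.5, estimated with Salmon 1.10.3 on GRCm39 and normalized with DESeq2 1.44.0. The deposited signal values are normalized counts, divided by the authors by factors for library size and transcript length, so whole reads could not be recovered and no count test was run. Precision is that of the replicate spread. Groups came from the labels. Tests used limma 3.58.1 (R 4.3.3, variance trend, log2 of value + 1, mean of at least 10, Benjamini-Hochberg at 0.05). Laser and interaction used all 24 libraries, and genotype used the 8 or 16 libraries of a condition. Gene positions, transcripts and sequences came from GRCm39 with GENCODE, and 99.1% of identifiers matched. The 6 genes and the lists were chosen with earlier results of these data known. Named were the 6 genes, Ceacam1, genes from the lists that were the most abundant or among the 3 of lowest p with laser in wild type, and the 3 coding genes most like each gene. The fits were tested on simulated data. Alternatives were other pseudocounts, filters, scalings, variance models, covariates and sets of libraries. Python 3.11.15 was used for tables and figures.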

Additional observations from a re-analysis of the deposited data

Results flagged for a closer look

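Among 28 sets of values, 6 genes and Ceacam1 in 4 groups, 5 had a library far from the rest of its group, where chance flags about 1 in 20 groups. Fcgr2b was 314.7 in wild type library 21 without laser, below the next value of 432.3, and 2599 in wild type laser library 1, above the next value of 1768. Fcgr4 was 66.62 in wild type library 26 without laser, above the next value of 27.92. Ceacam1 was 8367 in wild type laser library 19, above the next of 1776, and 1171 in Ceacam1-/- library 28 without laser, above the next of 507.9.

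The genotype difference with laser, tested as a difference between the runs of library numbers 11 to 19 and 1 to 7, was lower in the run 11 to 19 by limma for 5 genes, beside 17.4% of all genes called in either direction, at -1.63 for Fcgr1 (adjusted p = 0.0198), -1.21 for Fcgr2b (adjusted p = 0.02), -1.53 for Fcgr3 (adjusted p = 0.00392), -1.46 for Fcgr4 (adjusted p = 0.0351) and -2.06 for Fcgrt (adjusted p = 0.000767). The count of 5 became 0 with macrophage markers as a covariate, with Fcgrt at -2.42 (SE 0.62) and Fcgr2b, Fcgr3 and Fcgr4 at -0.09, 0.13 and 0.41. It became 2 with photoreceptor markers, where Fcgr1 at -1.78, Fcgr4 at -1.28 and Fcgr2b at -0.95 no longer passed. This comparison was added after the values were seen.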

How the results depend on the processing

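Counts of the 6 genes called by limma moved as follows. For laser in wild type the count of 5 became 1 with macrophage markers as a covariate, that one being Fcgrt, lower (6.11% of all genes lower), and 6 with array weights (16.2% of all genes higher) or only the libraries compared (8.13%). For laser in Ceacam1-/- mice the count of 3 became 5 with array weights (9.5% of all genes higher, against 2.07%) or photoreceptor markers (3.49%), 6 with laser libraries 1 to 7 (5.72%) or without 14, 15 and 18 (7.6%), 4 with laser libraries 11 to 19, Fcgrt being lower, and 0 with only the libraries compared (0.177%). With macrophage markers it remained 3, but of other genes: Fcgr1 and Fcgr4 higher and Fcgrt lower, without Fcer1g. For the interaction 0 became 3 with laser libraries 11 to 19 (9.4% of all genes). For genotype with laser 0 became 6 with libraries 11 to 19 (37.9%) and 2 with the number run as a term (19.6%). For the difference between runs 5 became 0 with macrophage (0%) and 2 with photoreceptor markers (5.46%, against 17.4%), with Fcgrt at -2.42 (against -2.06) under the former and Fcgr1 and Fcgr4 at -1.78 and -1.28 (against -1.63 and -1.46) under the latter. Fcgr4 also lost its call there with no filter (adjusted p = 0.0553) or Y-linked genes as a covariate (adjusted p = 0.0533). Leaving out 1 library, each without laser or number 14, gave 5 to 5 for laser in wild type and 3 to 5 in Ceacam1-/- mice, 5 being without library 14, and 0 to 0 for the interaction and for genotype without laser. The covariates, number runs and array weights changed these counts, and the cause was not tested.

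Signs turned as follows. With macrophage markers, laser in wild type gave -0.16 for Fcgr2b, -0.25 for Fcgr3, -1.62 for Fcgrt, -1.01 for B2m, -0.64 for Ighm, -1.05 for Clec4n, -0.95 for Syk, -0.30 for Lilrb4a, -0.27 for Cd300a, -0.12 for Cybb, -0.22 for Rac2, -0.42 for Cyba and -0.58 for Inpp5d. In Ceacam1-/- mice it gave -0.16 for Fcgr2b, -0.28 for Fcgr3, -1.49 for Fcgrt, -1.01 for B2m, -0.64 for Ighm, -0.20 for Clec4n, -0.89 for Syk, -0.31 for Lilrb4a, -0.28 for Cd300a and -0.48 for Cyba. With laser libraries 11 to 19, laser in Ceacam1-/- mice gave -1.18 for Fcgrt, -0.58 for B2m, -0.03 for Ighm and -0.35 for Syk, and leaving out 1 library gave -0.14 to 0.50 for Fcgrt, the former without library 23 and the latter without library 14. The interaction became, with array weights, macrophage markers, photoreceptor markers, libraries 1 to 7 and without 14, 15 and 18 in turn, 0.15, 0.30, 0.15, 0.12 and 0.37 for Fcgr1. In the last 4 of these it became 0.65, 0.76, 0.47 and 0.70 for Fcgr4 and 0.13, 0.24, 0.17 and 0.35 for Fcgrt, and in the last 0.09 for Fcgr2b and 0.07 for Fcgr3. Without the libraries rich in epithelial keratins (15, 19, 22, 27 and 28) it was 0.40 for Fcgr4, and genotype without laser was -0.13 for Fcgr3, while each count of calls was the same. Leaving out 1 library gave up to 0.12 for the interaction of Fcgr4, with 0.02, 0.04 and 0.07 among the values. Genotype without laser became -0.02 and -0.09 for Fcgr3 with macrophage and photoreceptor markers, -0.17 for Fcgrt with photoreceptor markers and 0.42 for Fcgr4 with array weights. Leaving out 1 library there gave -0.04 and -0.02 for Fcgr2b, -0.07, -0.03 and -0.02 for Fcgr3, -0.07 and -0.01 for Fcgrt, and -0.32 to 0.21 for Fcgr4 with 0.20 among the values. Genotype with laser became, with array weights, macrophage markers and without 14, 15 and 18, 0.09, 0.07 and 0.19 for Fcgr2b, 0.42, 0.45 and 0.56 for Fcgr4, 0.21, 0.22 and 0.26 for Fcer1g and 0.25, 0.18 and 0.47 for Fcgrt. It became 0.08 for Fcgr3 without those libraries, 0.26, 0.11 and 0.06 for Fcgr4, Fcer1g and Fcgrt with photoreceptor markers, and 0.34 and 0.29 for Fcgr4 and Fcgrt in libraries 1 to 7. Fcgr1 became -0.97 in libraries 11 to 19, -0.22 with the number run and -0.01 after quantile normalization. The difference between runs became 0.13 for Fcgr3, 0.41 for Fcgr4 and 1.17 for Fcer1g with macrophage markers.

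No paired analysis was possible because library numbers are unique and no group shares one with another. The number runs, the photoreceptor covariate, the joint omissions of libraries 14, 15 and 18 and of 15, 19, 22, 27 and 28, the sum of Fcgr2b and Fcgr3 and the median coding length were added after seeing the data. Without counts of reads, depth sets no interval here, and precision rests on 4 libraries in each group without laser.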
